A study of Danio rerio with 6 samples.

Results

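Integrins are the receptors by which cells hold on to the matrix and, in blood cells, to each other, and laminins are the large glycoproteins that build the basement membrane many of these receptors grip. The genes described here were every row of the deposited expression table whose name, whatever its case, began as an integrin alpha or beta chain or as a laminin alpha, beta or gamma chain, with names starting itgb1bp left out because those encode integrin-binding proteins. This gave 42 of 21837 rows, of which 32 were integrin chains (20 alpha and 12 beta) and 10 were laminin chains (4 alpha, 5 beta and 1 gamma). Levels are in FPKM, in which the fragments of a gene are divided by its length and by the total of its library. Genes averaging 1 FPKM or more across all 6 libraries were tested, and 19 of the 42 reached it.

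The libraries came from zebrafish embryos that carried Tg(fli1a:eGFP) and were sampled at 28 hours post fertilization (hpf). One group of 3 libraries was from embryos given a clec16a morpholino (clec16a MO), and the other group of 3 was from embryos given a control morpholino (control MO). Both groups carried the transgene, both are described as GFP+ cells, and both were used without culture. Morpholinos are antisense oligomers that block either translation or splicing of a target RNA, and the mode of the clec16a MO is not stated in the labels. The fli1a sequence in the transgene is active in endothelium and, as background, also in some blood and pharyngeal arch cells. Sample titles begin NegaP in the clec16a MO group and Exp2D in the other, and the labels explain neither. What NegaP stands for is therefore unknown, and a difference in how the cells were collected cannot be told apart from the morpholino in any comparison here. The labels do not state the gate, the number of embryos pooled or whether replicates came from separate clutches. The p-values therefore cover the spread between these libraries alone, which may be technical.

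An integrin at the cell surface is a pair of one alpha and one beta chain, and the pair decides what is bound. As background from mammals, alpha5 with beta1 binds fibronectin, alpha1 and alpha2 with beta1 bind collagens, alpha6 binds laminins, alphaV with beta3 or beta5 binds vitronectin, alpha4 binds VCAM-1 and fibronectin, and beta2 and beta7 are chains of leukocytes. A laminin is a trimer of an alpha, a beta and a gamma chain, and the trimer rich in the alpha4 chain is typical of vessel walls.

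The targeted gene, clec16a, an endosomal protein that takes part in mitophagy, was listed at 5.68, 5.57 and 4.24 FPKM in clec16a MO libraries and at 14.4, 14.1 and 14.3 FPKM in control MO libraries. It was lower in clec16a MO cells by limma with Benjamini-Hochberg adjustment (log2 difference -1.32, SE 0.13, adjusted p = 5.5e-05), and also with each library centred on its median (-0.63, adjusted p = 0.0031). The numbers of rows above 0 were 15153 to 15871 in clec16a MO libraries and 19250 to 19317 in control MO libraries. Of 17 endothelial marker rows, 16 were lower in clec16a MO cells, against 54.6% of all rows tested. Their summed level was 1703 to 2089 FPKM in clec16a MO libraries and 5977 to 6023 FPKM in control MO libraries, with erg at 0 in each clec16a MO library, and fli1a itself stood at 107 ± 9.02 FPKM in clec16a MO cells and 1049 ± 71.2 FPKM in control MO cells (SD, n = 3 each). The abundant markers clec14a and etv2 differed less. The level of clec14a was 780 ± 165 FPKM in clec16a MO cells and 858 ± 15.1 FPKM in control MO cells, which did not pass (limma, adjusted p = 0.34). That of etv2 was 366 ± 54.8 FPKM in clec16a MO cells and 476 ± 5.48 FPKM in control MO cells (log2 difference -0.39, limma, adjusted p = 0.016). With median centring 15 of the 17 were lower and 2, clec14a and etv2, were higher, against 38.1% and 39.7% of all rows. With quantile normalization all 17 were lower, against 4835 of all 12153 rows tested. The libraries labelled clec16a MO thus carried less endothelial marker RNA than those labelled control MO although both are described as GFP+ cells, and the part of this in the results was not tested. Because these are bulk libraries, fewer cells of a type and less RNA per cell cannot be told apart.

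The lowest differences in clec16a MO cells were those of the beta1 rows itgb1b and ITGB1, and all 4 tested laminin chains were lower. In all, 13 of the 19 tested members were lower and 3 were higher, by limma on log2(FPKM + 1) with Benjamini-Hochberg adjusted p below 0.05. The higher ones were itgb2, itgae.2 and itga2.3, and the ones that did not pass were itga4, itga2.1 and itgb1a. The filter kept itgb2 and itgae.2 through their clec16a MO libraries, since their control MO means were below 1 FPKM. In the same way it kept itga9, lamc1 and itga2.1 through their control MO libraries. Over all 12153 rows tested, 54.6% were lower and 26.7% were higher, so a fall was also the commonest outcome among all genes. The median log2 difference was -2.35 over the 19 members and -0.66 over all rows tested. When each library was centred on its median, which shifted the median of all rows by 0.69, 12 members were lower and 4 were higher, against 38.1% lower and 39.7% higher over all rows. The members' median was then -1.66 and that of all rows 0.03. The changes in the centred count were itga6b, which was no longer lower, and itga4, which became higher. The groups did not overlap for 16 of the 19 members, against 83.7% of all rows tested, a similar share.

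**Figure D1:**
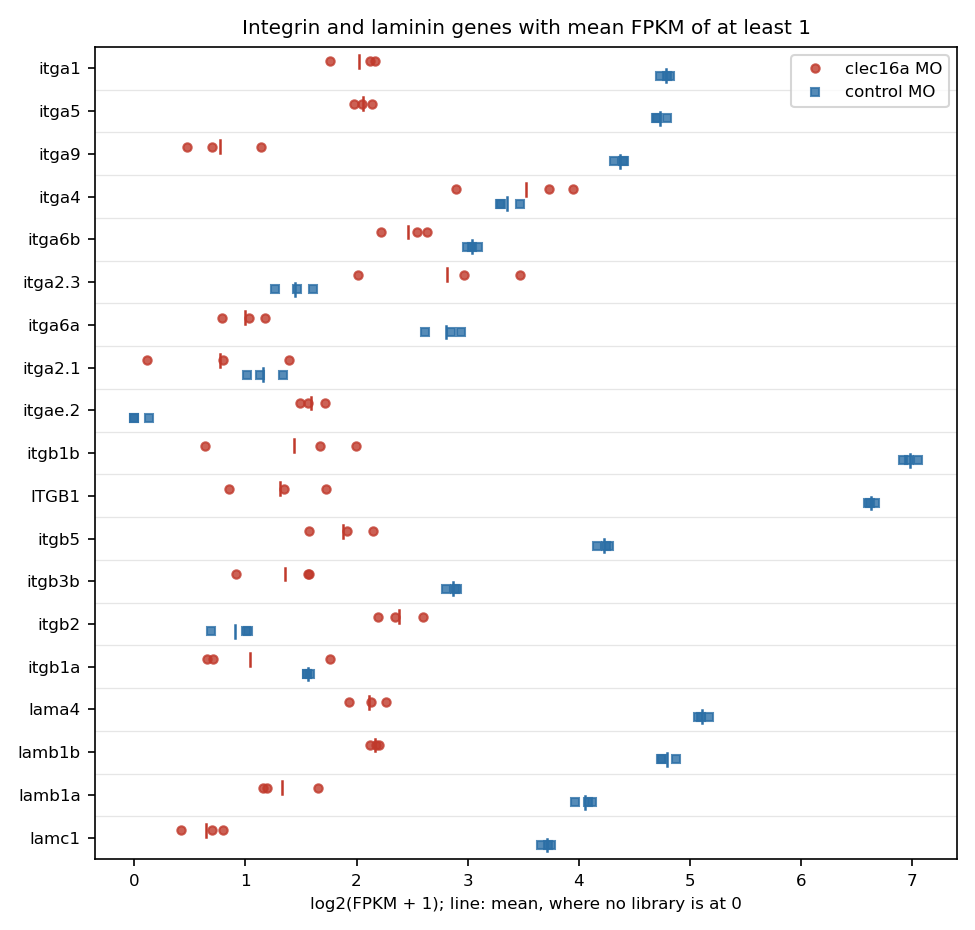
log2(FPKM + 1) of the tested integrin and laminin genes, one point per library, clec16a MO (3 libraries) drawn above control MO (3 libraries) for each gene, with a line at the group mean where no library is at 0. In FPKM the clec16a MO points of itgb1b and ITGB1 lie between 0.552 and 2.99 FPKM and their control MO points between 96.5 and 132 FPKM, while itgb2, itgae.2 and itga2.3 lie higher in clec16a MO libraries.

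Beta1 chains pair with most matrix-binding alpha chains, and the beta1 rows itgb1b and ITGB1 showed the largest differences among the tested members. The row named itgb1b had 2.99, 0.552 and 2.18 FPKM in clec16a MO libraries, against 124, 120 and 132 FPKM in control MO libraries. Every clec16a MO library was far below every control MO library, and no control MO library stood apart. The log2 difference was -5.55 (SE 0.33, adjusted p = 3.7e-06 by limma with Benjamini-Hochberg adjustment), which was rank 78 from the lowest of 12153.

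A row that the deposited table names ITGB1, in capitals, had 2.31, 0.804 and 1.54 FPKM in clec16a MO libraries, against 96.5, 97.5 and 101 FPKM in control MO libraries. Its log2 difference was -5.32 (SE 0.21, limma, Benjamini-Hochberg adjusted p = 7.5e-07), rank 94 from the lowest. In both of these rows the second clec16a MO library was the lowest of the 6. Reads of near-identical beta1 copies can be divided between rows by the counting, so the level of each beta1 row taken alone is uncertain, and the table does not say which locus the row ITGB1 stands for.

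The third tested beta1 row, itgb1a, did not follow them. It had 0.632, 0.573 and 2.39 FPKM in clec16a MO libraries, against 1.95, 2.0 and 1.94 FPKM in control MO libraries. The third clec16a MO library lay above all control MO libraries and the other two lay below, so the groups overlapped (log2 difference -0.53, SE 0.29, limma, Benjamini-Hochberg adjusted p = 0.13). Without that library the log2 difference was -0.89 with a limma adjusted p of 0.00048, and over all alternatives the adjusted p ran between 0.00048 and 0.62. Rows itgb1b.1 and itgb1b.2, which stand beside itgb1b in the reference gene table, were too low to test. In itgb1b.1 the values were 0, 0.0379 and 0 FPKM in clec16a MO libraries and 0.584, 0.778 and 0.669 FPKM in control MO libraries, without overlap. In itgb1b.2 they were 0.280, 0 and 0 FPKM in clec16a MO libraries and 0.387, 0.537 and 0.613 FPKM in control MO libraries, again without overlap.

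The beta5 chain itgb5 and the beta3 chain itgb3b were lower too. The level of itgb5, a vitronectin-binding partner of alphaV in mammals, was 3.44, 2.77 and 1.97 FPKM in clec16a MO libraries, against 17.9, 17.0 and 18.3 FPKM in control MO libraries. All clec16a MO libraries were below all control MO libraries (log2 difference -2.35, SE 0.17, limma, Benjamini-Hochberg adjusted p = 9.1e-06). The level of itgb3b, a beta3 chain, was 1.96, 0.886 and 1.98 FPKM in clec16a MO libraries, against 6.40, 6.47 and 5.99 FPKM in control MO libraries. The groups were apart here too, with the second clec16a MO library lowest (log2 difference -1.51, SE 0.20, limma, Benjamini-Hochberg adjusted p = 0.00027). Its paralog itgb3a went the other way at a level too low to test, with 0.354, 0.398 and 0.456 FPKM in clec16a MO libraries and 0.0110, 0 and 0 FPKM in control MO libraries.

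Of the 6 tested beta chains, 1 was higher, and it is a leukocyte chain. The level of itgb2, the beta2 chain that all CD18 integrins of white blood cells share, was 5.06, 4.09 and 3.57 FPKM in clec16a MO libraries, against 0.612, 1.01 and 1.03 FPKM in control MO libraries. Each clec16a MO library was above each control MO library (log2 difference 1.47, SE 0.16, limma, Benjamini-Hochberg adjusted p = 9.6e-05). The beta7 chain itgb7, which in mammals guides lymphocytes to mucosa, was below the testing level, with 1.09, 0.365 and 0.773 FPKM in clec16a MO libraries, and it was listed at 0 in each control MO library. The other untested beta chains were low in both groups. The values of itgb4, the hemidesmosome chain, were 0 in each clec16a MO library and 0.205, 0.152 and 0.278 FPKM in control MO libraries. The values of itgb6, an epithelial partner of alphaV, were 0.166, 0.0573 and 0 FPKM in clec16a MO libraries and 0.112, 0.151 and 0.0722 FPKM in control MO libraries, with overlap.

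Since the leukocyte chains are made by blood cells, the levels of blood cell markers stand beside them here. All 11 neutrophil marker rows were higher in clec16a MO cells, with a summed level of 1566 to 1990 FPKM in clec16a MO libraries and 257 to 266 FPKM in control MO libraries, where mpx, lect2l, cpa5 and both mmp13a rows were at 0 in each library. Of 17 macrophage marker rows, of which 8 are named mfap4, 11 were tested and 9 of these were higher, namely 5 mfap4 rows, spi1b, coro1a, mpeg1.1 and cybb, while irf8 was lower and lcp1 did not pass. The lower call of irf8 was lost with median centring, where 10 were higher, and with quantile normalization, where 9 were. Over all rows tested, 26.7% were higher as deposited and 39.7% with median centring. The 5 mfap4 rows, mpeg1.1, spi1b and the neutrophil rows at 0 in each control MO library were tested only through their clec16a MO libraries. Their higher calls are therefore not independent of the filter, and the counts cannot be read plainly against those shares. The mfap4 rows summed to 2092 to 2994 FPKM in clec16a MO libraries and at most 0.0827 FPKM in control MO libraries. The other macrophage rows summed to 72.3 to 92.4 FPKM in clec16a MO libraries and 26.6 to 28.2 FPKM in control MO libraries, where mpeg1.1, marco and csf1ra were at 0 in each library. In clec16a MO libraries marco was at 0 in the first and the third and csf1ra in the first and the second. All 14 primitive erythroid marker rows were higher, at 16399 to 27198 FPKM in clec16a MO libraries and 1205 to 1347 FPKM in control MO libraries. Of these rows epb41b, sptb and nt5c2l1 averaged below 1 FPKM in control MO libraries, so they too were tested only through clec16a MO libraries. The part of these cell types in the integrin results was not tested.

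Among the alpha chains, itga5, itga1 and itga9, the highest in the control MO libraries, were lower in clec16a MO cells. The alpha5 chain itga5, the main fibronectin receptor chain, had 3.15, 3.39 and 2.94 FPKM in clec16a MO libraries, against 24.9, 25.0 and 26.8 FPKM in control MO libraries. The groups lay far apart with little spread in either (log2 difference -2.68, SE 0.11, limma, Benjamini-Hochberg adjusted p = 7.2e-07). The collagen-binding itga1 had 3.49, 2.40 and 3.35 FPKM in clec16a MO libraries, against 25.6, 27.3 and 26.8 FPKM in control MO libraries. It too was lower without overlap (log2 difference -2.77, SE 0.14, limma, Benjamini-Hochberg adjusted p = 1.8e-06). The alpha9 chain itga9, a receptor for tenascin and VCAM-1 in mammals, had 1.21, 0.385 and 0.625 FPKM in clec16a MO libraries, against 20.2, 18.9 and 20.0 FPKM in control MO libraries. This was the largest fall among the alpha chains (log2 difference -3.60, SE 0.19, limma, Benjamini-Hochberg adjusted p = 2e-06).

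Its close relative itga4, the alpha4 chain of leukocytes and blood progenitors, was not lower. It had 14.4, 6.46 and 12.3 FPKM in clec16a MO libraries, against 10.1, 8.85 and 8.79 FPKM in control MO libraries. The first and the third clec16a MO libraries were above all control MO libraries and the second was below them (log2 difference 0.17, SE 0.26, limma, Benjamini-Hochberg adjusted p = 0.57). With median centring the log2 difference was 0.86 and the limma adjusted p was 0.016. It was 0.48 with an adjusted p of 0.0097 without the second clec16a MO library, and -0.04 without the first, and over all alternatives the adjusted p ran between 0.0097 and 0.88.

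The laminin-binding alpha6 pair split. The level of itga6a was 0.725, 1.05 and 1.26 FPKM in clec16a MO libraries, against 6.23, 5.12 and 6.68 FPKM in control MO libraries, a clear separation (log2 difference -1.80, SE 0.16, limma, Benjamini-Hochberg adjusted p = 2.8e-05). The level of itga6b was 3.65, 5.21 and 4.83 FPKM in clec16a MO libraries, against 7.51, 6.97 and 7.20 FPKM in control MO libraries. It was lower as deposited (log2 difference -0.58, SE 0.14, limma, Benjamini-Hochberg adjusted p = 0.0075), but the direction turned with median centring (log2 difference 0.12, adjusted p = 0.5). The ratio of itga6b to itga6a, which library scaling cannot move, was 4.61 ± 0.678 in clec16a MO libraries and 1.22 ± 0.142 in control MO libraries (SD, n = 3 each; two-sided exact permutation p = 0.1, the smallest that 3 against 3 can give). This ratio was chosen after the values were seen. The other laminin-binding chains were scarce. Of these, itga3a was at 0 in each clec16a MO library and at 0.517, 0.584 and 0.446 FPKM in control MO libraries. Its paralog itga3b was at 0 in each clec16a MO library and at 0.222, 0.0919 and 0.114 FPKM in control MO libraries, and itga6l was above 0 in the first clec16a MO library alone, at 0.0219 FPKM.

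The alpha2 rows, named as collagen receptors, did not move as one. The level of itga2.3 was 3.03, 10.1 and 6.82 FPKM in clec16a MO libraries, against 1.76, 2.04 and 1.40 FPKM in control MO libraries. Each clec16a MO library was higher, with a wide spread among them (log2 difference 1.37, SE 0.35, limma, Benjamini-Hochberg adjusted p = 0.0084). The level of itga2.1 was 0.742, 1.63 and 0.0833 FPKM in clec16a MO libraries, against 1.53, 1.02 and 1.19 FPKM in control MO libraries, and the groups overlapped (log2 difference -0.39, SE 0.31, limma, Benjamini-Hochberg adjusted p = 0.26). Without the second clec16a MO library it was -0.70 with a limma adjusted p of 0.03, with median centring it was 0.30, and over all alternatives the adjusted p ran between 0.03 and 0.79. The second clec16a MO library was the highest of its group in both rows, and it was the lowest of its group for itga4 and itgb1b. Similar rows of one family may share reads, so the split between itga2.1, itga2.2 and itga2.3 is uncertain. The values of itga2.2 were 0, 0 and 0.0162 FPKM in clec16a MO libraries and 0.0152, 0.0432 and 0.0389 FPKM in control MO libraries.

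The alphaE rows, whose mammalian counterpart pairs with beta7 and binds E-cadherin, were higher or uneven. The level of itgae.2 was 1.82, 2.3 and 1.95 FPKM in clec16a MO libraries, against 0, 0 and 0.0945 FPKM in control MO libraries. It was found in every clec16a MO library and nearly absent from the table in control MO libraries (log2 difference 1.55 on the log2(FPKM + 1) scale, SE 0.11, limma, Benjamini-Hochberg adjusted p = 9.6e-06). With a mean of 1.03 FPKM over all libraries, itgae.2 reached the testing level only through the clec16a MO libraries, where it is high. The test of itgae.2 is therefore not independent of that filter. Its neighbour itgae.1, 1 protein-coding gene away in the reference gene table, had 0, 1.23 and 2.09 FPKM in clec16a MO libraries and 0.258, 0.235 and 0.197 FPKM in control MO libraries. The groups overlapped because the first clec16a MO library was at 0.

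The remaining alpha chains did not reach the testing level. The highest of them was itgav, the alphaV chain, with a mean of 0.675 FPKM over all libraries, while the lowest tested member, itgae.2, had a mean of 1.03 FPKM. The values of itgav were 0.176, 0.0213 and 0.152 FPKM in clec16a MO libraries and 1.17, 1.40 and 1.14 FPKM in control MO libraries. The nephronectin receptor itga8 had 0.159, 0.133 and 0.291 FPKM in clec16a MO libraries and 0.683, 0.554 and 0.695 FPKM in control MO libraries. Both sets of values were apart and lower in clec16a MO cells, and so were those of the collagen receptor itga10, at 0.0844, 0 and 0.0291 FPKM in clec16a MO libraries and 0.427, 0.414 and 0.405 FPKM in control MO libraries. The thrombocyte chain itga2b, the zebrafish CD41 gene used to mark thrombocytes and blood stem cells, had 0.228, 0.666 and 0 FPKM in clec16a MO libraries and was at 0 in each control MO library. Of the 9 thrombocyte marker rows, which include itga2b, 5 were tested, nfe2, gfi1b, gp9 and gp1bb were higher and thbs1b was lower. Over all rows tested, 26.7% were higher and 54.6% were lower. All of nfe2, gfi1b, gp9 and gp1bb averaged below 1 FPKM in control MO libraries, so they were tested only through their clec16a MO libraries. The lower call of thbs1b was lost with median centring and with quantile normalization. The 9 rows summed to 169 to 213 FPKM in clec16a MO libraries and 15 FPKM in each control MO library, and nfe2, a factor that red cells also use, averaged 124 FPKM of that in clec16a MO libraries. The collagen receptors itga11a and itga11b were at 0 in each clec16a MO library and at most 0.0645 FPKM in control MO libraries.

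**Figure D2:**
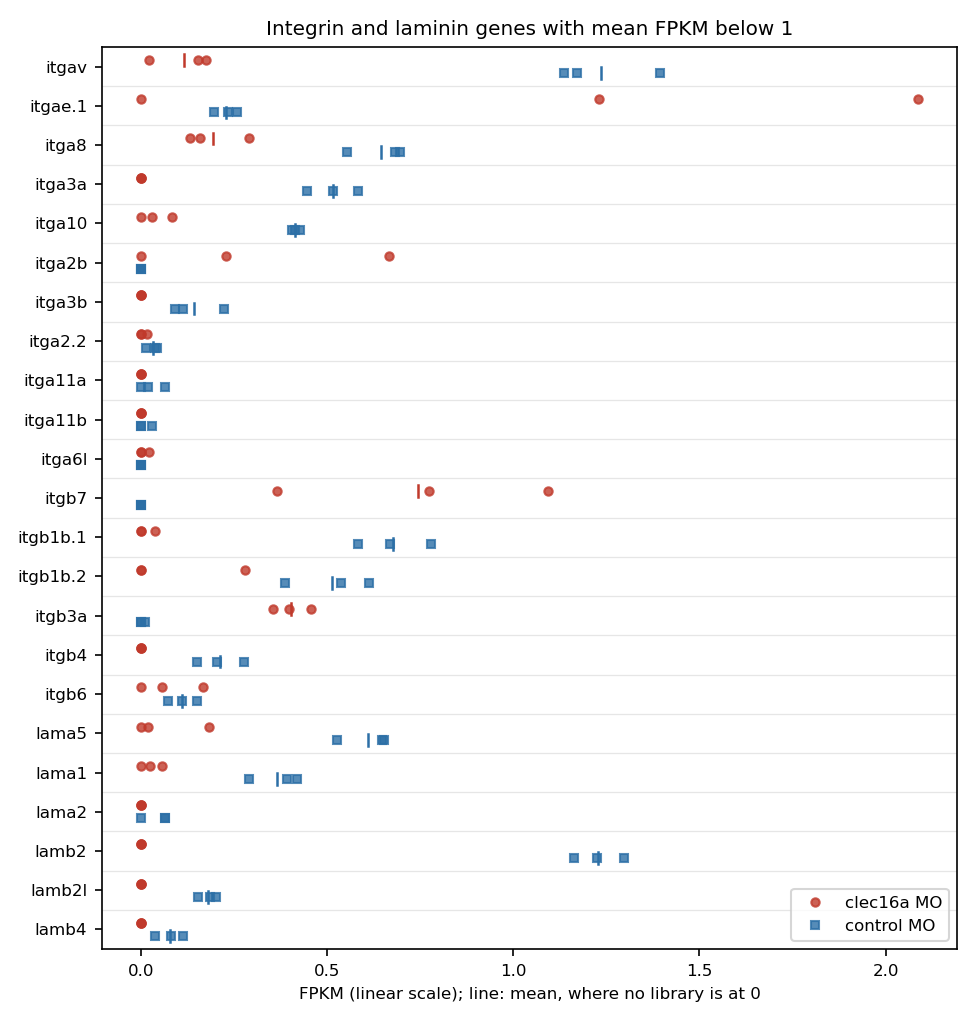
FPKM of the members below the testing level, one point per library on an axis that includes 0, clec16a MO (3 libraries) above control MO (3 libraries) for each gene, with a line at the group mean where no library is at 0. The 3 genes at 0 in every control MO library are itga2b, itga6l and itgb7. The rows that are higher in clec16a MO libraries without overlap are itgb7 and itgb3a.

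All laminin chains that could be tested were lower in clec16a MO cells. The level of lama4, the alpha4 chain of vessel basement membrane, was 3.37, 3.81 and 2.82 FPKM in clec16a MO libraries, against 32.6, 33.2 and 35.0 FPKM in control MO libraries. No clec16a MO library came near the control MO range (log2 difference -3.00, SE 0.12, limma, Benjamini-Hochberg adjusted p = 7.7e-07). The level of lamb1b, a beta1-type laminin chain, was 3.51, 3.34 and 3.6 FPKM in clec16a MO libraries, against 25.7, 26.0 and 28.4 FPKM in control MO libraries. The spread within clec16a MO libraries was small (log2 difference -2.63, SE 0.10, limma, Benjamini-Hochberg adjusted p = 6.9e-07). The level of lamb1a, the zebrafish grumpy gene needed for the notochord, was 2.14, 1.23 and 1.29 FPKM in clec16a MO libraries, against 14.6, 15.9 and 16.4 FPKM in control MO libraries. It was lower by a similar amount (log2 difference -2.72, SE 0.16, limma, Benjamini-Hochberg adjusted p = 4.2e-06). The level of lamc1, the gamma chain known in zebrafish as sleepy, was 0.628, 0.735 and 0.342 FPKM in clec16a MO libraries, against 12.2, 12.5 and 11.7 FPKM in control MO libraries. Its log2 difference was -3.07 (SE 0.14, limma, Benjamini-Hochberg adjusted p = 1.2e-06).

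The other laminin chains were below the testing level in this cell preparation. The chain lamb2 stood at 0 in each clec16a MO library and at 1.30, 1.23 and 1.16 FPKM in control MO libraries. Its neighbour lamb2l was also at 0 in each clec16a MO library, against 0.154, 0.203 and 0.185 FPKM in control MO libraries. So was lamb4, against 0.0817, 0.114 and 0.0388 FPKM in control MO libraries. Together with itga3a, itga3b and itgb4, these made 6 of the 42 members that were at 0 in each clec16a MO library and above 0 in each control MO library, against 11.5% of all 21837 rows, which is a similar share. The broadly expressed lama5 had 0.0191, 0 and 0.184 FPKM in clec16a MO libraries and 0.526, 0.648 and 0.652 FPKM in control MO libraries. The early embryonic chain lama1 had 0.0567, 0.0239 and 0 FPKM in clec16a MO libraries and 0.418, 0.392 and 0.290 FPKM in control MO libraries. Neither gene overlapped between the groups. The muscle chain lama2 was at 0 in each clec16a MO library and at 0.0639, 0 and 0.0642 FPKM in control MO libraries.

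Some of the cell types that make laminins and matrix integrins also had lower marker levels. All 13 skeletal muscle marker rows were lower, with a summed level of 28 to 42 FPKM in clec16a MO libraries and 3183 to 3226 FPKM in control MO libraries. Of 11 tested epidermis marker rows 10 were lower, and their list summed to 107 to 118 FPKM in clec16a MO libraries and 1220 to 1242 FPKM in control MO libraries. All 5 tested notochord rows were lower, at 16 to 30 FPKM summed over 8 rows in clec16a MO libraries and 70 to 73 FPKM in control MO libraries, with shha at 0 in each clec16a MO library. Of 5 tested rows for pharyngeal arch and fibroblast mesenchyme 4 were lower, and of 6 neural rows 4 were lower and 1 was higher. Those lists summed to 59 to 84 and 44 to 58 FPKM in clec16a MO libraries and to 236 to 251 and 89 to 96 FPKM in control MO libraries. Most of the mesenchyme sum was the single row postnb, which is also on the list of integrin ligands below. It was at 47.6, 76.2 and 64.8 FPKM in clec16a MO libraries and 195, 193 and 207 FPKM in control MO libraries. Over all rows tested, 54.6% were lower and 26.7% were higher. With median centring 13 muscle, 9 epidermis, 3 notochord, 4 mesenchyme and 3 neural rows were lower. Then 1 epidermis, 1 mesenchyme and 2 neural rows were higher, against 38.1% lower and 39.7% higher over all rows. The part of these cell types in the laminin and integrin results was not tested.

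Summed over whole families, the beta integrins differed most between the groups among the integrins. FPKM is scaled by transcript length, so levels of different chains can be added and compared. Integrin beta chains summed to 14.6 ± 3.88 FPKM in clec16a MO libraries and 252 ± 8.34 FPKM in control MO libraries, a 17.3-fold lower level, or 9.86-fold after division by each library's median (SD, n = 3 each; exact permutation p = 0.1). Integrin alpha chains summed to 34.9 ± 1.9 FPKM in clec16a MO libraries and 101 ± 1.81 FPKM in control MO libraries, a 2.89-fold lower level, or 1.64-fold after that division (SD, n = 3 each; exact permutation p = 0.1). The beta sum was thus further below its control level than the alpha sum was. This rests on itgb1b and ITGB1, which made up 88.7 ± 0.189% of the beta sum in control MO libraries (SD, n = 3). Without itgb1b and ITGB1, the mean beta sum was not further below its control level than the alpha sum was. That comparison was not put to a test. The ratio of the beta sum to the alpha sum was 0.556, 0.301 and 0.405 in clec16a MO libraries, against 2.46, 2.49 and 2.56 in control MO libraries. The groups did not overlap in this ratio, which does not depend on library scaling and was chosen after the values were seen (two-sided exact permutation p = 0.1).

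All laminin families were lower, each without overlap between the groups. Among all single rows tested, the groups did not overlap for 83.7%, and 54.6% were lower. The alpha chains summed to 3.43 ± 0.416 FPKM in clec16a MO libraries and 34.6 ± 1.24 FPKM in control MO libraries, 10.1-fold lower, or 5.73-fold after that division (SD, n = 3 each; exact permutation p = 0.1). The beta chains summed to 5.03 ± 0.553 FPKM in clec16a MO libraries and 43.8 ± 2.16 FPKM in control MO libraries, 8.71-fold lower, or 4.95-fold after that division (SD, n = 3 each; exact permutation p = 0.1). The gamma chain, which is lamc1 alone, was 21.3-fold lower, or 12.1-fold after that division. The ratio of the gamma chain to the beta sum was 0.111, 0.161 and 0.0699 in clec16a MO libraries and 0.292, 0.287 and 0.252 in control MO libraries (two-sided exact permutation p = 0.1). This ratio was chosen after the values were seen, and in clec16a MO libraries it rests on lamc1 at 0.628, 0.735 and 0.342 FPKM. The beta sum exceeded the alpha sum in every library, by 1.64, 1.19 and 1.63 times in clec16a MO libraries and 1.25, 1.27 and 1.28 times in control MO libraries, with overlap between groups.

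Shares within a family show which chain dominated, again free of library scaling. Of all integrin beta RNA, itgb1b and ITGB1 together made up 22.3 ± 8.40% in clec16a MO libraries and 88.7 ± 0.189% in control MO libraries (SD, n = 3 each; exact permutation p = 0.1). The leukocyte chains itgb2 and itgb7 made up 33.6%, 42.3% and 29.3% in clec16a MO libraries, against 0.246%, 0.413% and 0.393% in control MO libraries. The beta family of clec16a MO libraries was thus shared among several rows, with itgb2 the highest single row in each library. Summed, the beta1 rows were 1.01, 0.441 and 1.40 times the sum of itgb2 and itgb7 in clec16a MO libraries. In control MO libraries that ratio was 366, 218 and 229 (exact permutation p = 0.1), and it was chosen after the values were seen. The share of itgb5 was 19.4 ± 6.53% in clec16a MO libraries and 7.04 ± 0.148% in control MO libraries although its own level was lower (SD, n = 3 each; exact permutation p = 0.1). The share of itgb3b was likewise 10.8 ± 2.47% in clec16a MO libraries and 2.50 ± 0.183% in control MO libraries (SD, n = 3 each; exact permutation p = 0.1).

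The alpha family also differed in its leading members. The chains itga1, itga5 and itga9 made up 20.1 ± 3.29% in clec16a MO libraries and 71.4 ± 1.32% in control MO libraries (SD, n = 3 each; exact permutation p = 0.1). The chain itga4, the laminin-binding itga6b and the collagen-binding itga2.3 together made up 63.9 ± 1.47% in clec16a MO libraries and 18.1 ± 1.05% in control MO libraries (SD, n = 3 each; exact permutation p = 0.1). The spread of that summed share was small, yet its parts were not steady. The share of itga4 was 43.8%, 18.5% and 33.4% in clec16a MO libraries, against 9.97%, 8.97% and 8.61% in control MO libraries, and that of itga2.3 was 9.19%, 28.9% and 18.6% in clec16a MO libraries, against 1.74%, 2.07% and 1.38% in control MO libraries. Where itga4 took most of the family among clec16a MO libraries, in the first, itga2.3 took least, and the reverse held in the second. The alphaE rows together made up 5.53%, 10.1% and 11% in clec16a MO libraries, against 0.255%, 0.238% and 0.285% in control MO libraries. These groupings of chains were formed after the values were seen, and the first 2 both hold matrix-binding chains.

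**Figure D3:**
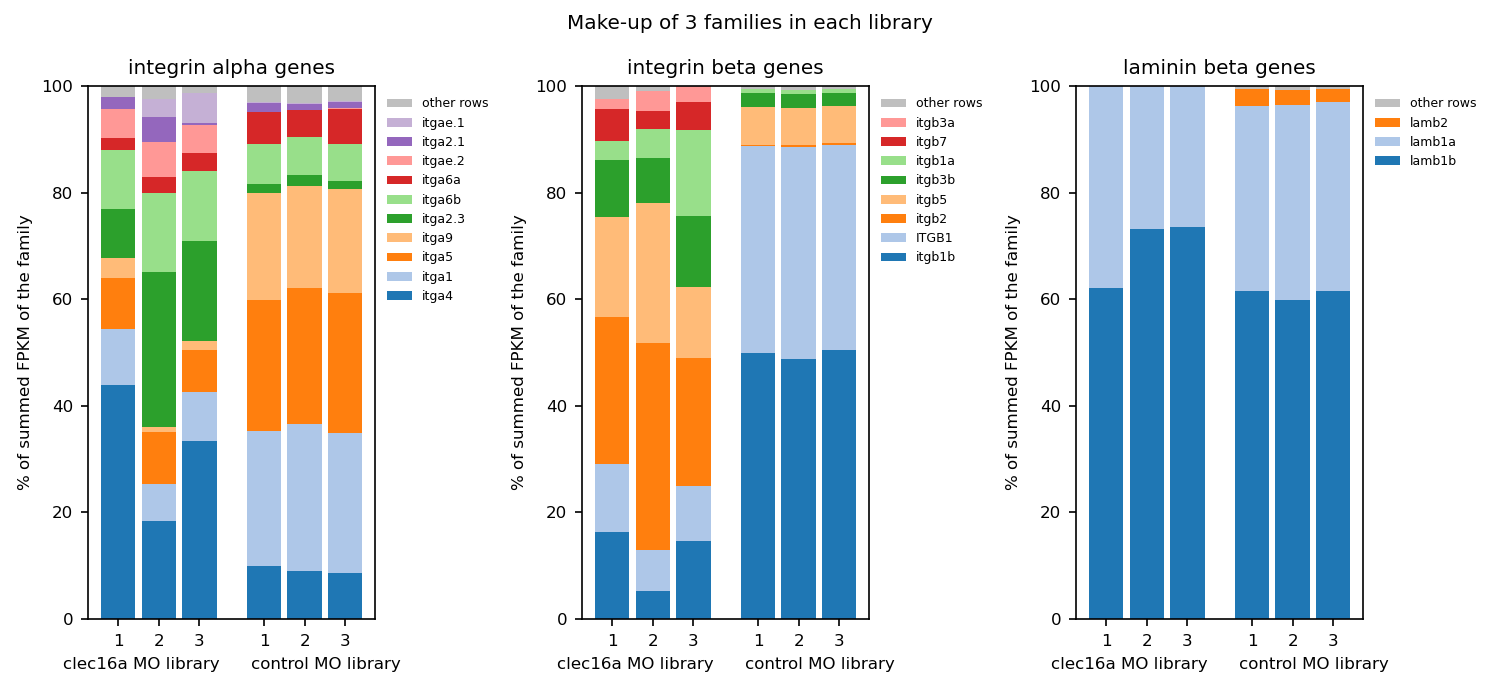
Percent of summed FPKM within the integrin alpha, integrin beta and laminin beta families, one stacked bar per library from 0 to 100, clec16a MO libraries left of control MO libraries. The beta bars of control MO libraries are mostly itgb1b and ITGB1 (88.7% on average), which average 22.3% in clec16a MO libraries, and the laminin beta bars keep lamb1b and lamb1a as their main parts in both groups.

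The laminin families kept the same leading chain in both groups. Within the alpha chains lama4 made up 97.0 ± 2.83% in clec16a MO libraries and 97.1 ± 0.129% in control MO libraries (SD, n = 3 each; exact permutation p = 1). Within the beta chains lamb1b made up 62.1%, 73.1% and 73.6% in clec16a MO libraries and 61.5%, 59.8% and 61.6% in control MO libraries. These shares did not overlap (exact permutation p = 0.1), while those of lamb1a, at 37.9%, 26.9% and 26.4% in clec16a MO libraries and 34.9%, 36.7% and 35.4% in control MO libraries, did overlap (exact permutation p = 0.4).

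**Figure D4:**
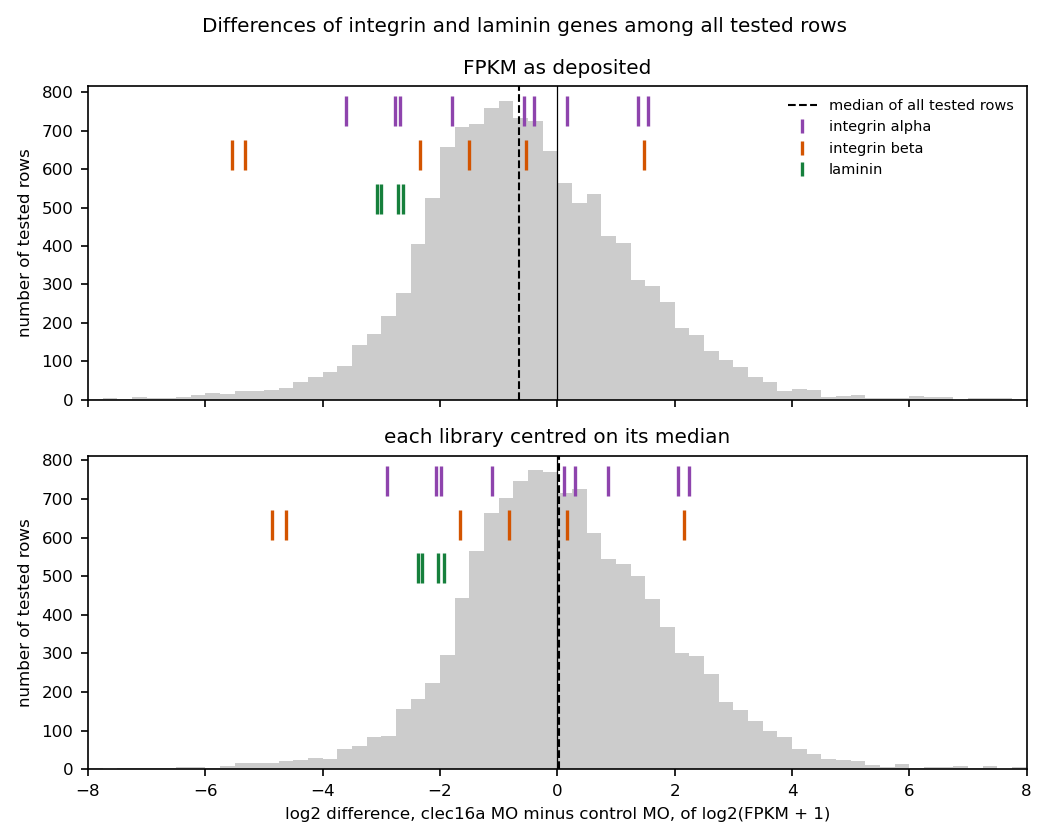
Log2 difference of FPKM + 1, clec16a MO minus control MO, for all 12153 rows tested (grey histogram of row numbers, with the few rows beyond the axis ends not drawn) with the tested integrin alpha, integrin beta and laminin genes as coloured ticks at heights without meaning, as deposited in the upper panel and centred on each library's median in the lower. The dashed line is the median of all rows. The median of all rows is -0.66 as deposited and 0.03 when centred, and itgb1b and ITGB1 are the members farthest to the left in both panels.

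Inside the cell, integrins are switched on by talins and kindlins and tied to actin through the ilk, parvin, paxillin and vinculin proteins. A list of such activation and adhesion complex genes had 59 rows, of which 38 were tested. In clec16a MO cells 30 were lower and 6 were higher, against 54.6% and 26.7% of all rows tested. The list's median log2 difference was -1.40, against -0.66 over all rows. Median centring left 23 lower and 7 higher, against 38.1% and 39.7% of all rows. Among the most abundant, the actin crosslinker actn4 was lower, at 14.8, 14.8 and 10.6 FPKM in clec16a MO libraries and 145, 146 and 145 FPKM in control MO libraries (log2 difference -3.36, SE 0.14, limma, Benjamini-Hochberg adjusted p = 7.9e-07). The exchange factor arhgef7b was lower too, with a log2 difference of -0.92 (SE 0.09, limma, Benjamini-Hochberg adjusted p = 5.3e-05), and did not pass with centring (-0.23, adjusted p = 0.058). With quantile normalization arhgef7b stayed lower (-1.03, limma, adjusted p = 2e-05). The small GTPase rap1aa, of the Rap1 group that drives integrin activation, was at 127 ± 22.6 FPKM in clec16a MO cells and 107 ± 3.07 FPKM in control MO cells (SD, n = 3 each; limma, Benjamini-Hochberg adjusted p = 0.13). It was called higher once libraries were centred on their medians (0.93, adjusted p = 0.00051 by limma) and without the first clec16a MO library (0.33, adjusted p = 0.045), and over all alternatives the adjusted p ran between 0.00051 and 0.91.

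The 6 adhesion complex genes that were higher are flna, parvg, cd151l, rap1ab, parvb and itgb1bp1. The filamin flna, which binds integrin beta tails, had 290.1, 267 and 211 FPKM in clec16a MO libraries, against 48.1, 45.5 and 49.9 FPKM in control MO libraries (log2 difference 2.38, SE 0.13, limma, Benjamini-Hochberg adjusted p = 2.6e-06). The parvin of blood cells, parvg, had 103, 90.0 and 87.1 FPKM in clec16a MO libraries, against 39.1, 39.1 and 39.8 FPKM in control MO libraries (log2 difference 1.22, SE 0.09, adjusted p = 1.3e-05). The tetraspanin cd151l was at 59.6 ± 6.95 FPKM in clec16a MO cells and 34.1 ± 1.18 FPKM in control MO cells (SD, n = 3 each; limma, adjusted p = 0.00038). The last 3 of the 6 higher genes were named after their values were seen. Of them rap1ab, a second Rap1 gene, was at 68.9 ± 10.6 FPKM in clec16a MO cells and 11.9 ± 0.498 FPKM in control MO cells, parvb, another parvin, was at 11 ± 3.17 FPKM in clec16a MO cells and 4.01 ± 0.470 FPKM in control MO cells, and itgb1bp1, the integrin cytoplasmic domain-associated protein that competes with talin, was at 53.6 ± 5.91 FPKM in clec16a MO cells and 19.0 ± 0.775 FPKM in control MO cells (SD, n = 3 each).

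Talins, kindlins and the proteins that join them were also chosen after their values were seen. The talin tln1 was lower, at 3.64, 3.26 and 3.91 FPKM in clec16a MO libraries and 25.8, 26.8 and 25.3 FPKM in control MO libraries (log2 difference -2.55, SE 0.11, limma, Benjamini-Hochberg adjusted p = 8.8e-07). The kindlins did not behave alike. The broadly expressed fermt2 was at 0.218, 0.131 and 0.173 FPKM in clec16a MO libraries and 11.5, 11.6 and 11.3 FPKM in control MO libraries (log2 difference -3.41, SE 0.11, limma, Benjamini-Hochberg adjusted p = 3.5e-07). The blood cell kindlins were below the testing level, with fermt3b, also on the thrombocyte list, at 1.34, 1.05 and 1.77 FPKM in clec16a MO libraries and 0.138, 0.0695 and 0.185 FPKM in control MO libraries, and fermt3a at 0.317, 1.35 and 0.675 FPKM in clec16a MO libraries and 0 in each control MO library. The kindlin fermt1, also below that level, was at 0, 0.385 and 0 FPKM in clec16a MO libraries and 0.962, 0.839 and 1.12 FPKM in control MO libraries. The paxillin pxnb was at 0 in each clec16a MO library and at 8.46, 9.15 and 8.06 FPKM in control MO libraries. The other paxillin row, pxna, was at 4.98, 4.40 and 6.58 FPKM in clec16a MO libraries and 8.04, 9.18 and 8.41 FPKM in control MO libraries. It was lower as deposited (log2 difference -0.61, limma, adjusted p = 0.0082) but not with median centring (0.08, adjusted p = 0.63) or quantile normalization (0.03, adjusted p = 0.86). The vinculin vclb was at 0.0658 ± 0.0336 FPKM in clec16a MO cells and 10.3 ± 0.807 FPKM in control MO cells (SD, n = 3 each; limma, adjusted p = 4.5e-07). With clec16a MO means below 1 FPKM, fermt2, pxnb and vclb reached the testing level only through their control MO libraries. The scaffold kinase ilk was at 18.3 ± 1.31 FPKM in clec16a MO cells and 27.4 ± 1.42 FPKM in control MO cells, lower as deposited (log2 difference -0.56, limma, adjusted p = 0.0013) but 0.13 with median centring (adjusted p = 0.26). With quantile normalization ilk stayed lower (-0.385, limma, adjusted p = 0.0095).

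Of 43 rows of integrin ligands other than laminins and collagens, 21 were tested, 17 were lower and 0 were higher. Over all rows tested, 54.6% were lower and 26.7% were higher. The list's median log2 difference was -1.45, against -0.66 over all rows. The list's count of 0 higher was by limma with Benjamini-Hochberg adjustment, and it was also 0 at an unadjusted p below 0.05. It was 4 with median centring, where 14 were lower, against 39.7% higher and 38.1% lower over all rows. The junction protein jam2a, a counter-receptor of leukocyte integrins in mammals, was at 59.1, 36.5 and 20.4 FPKM in clec16a MO libraries and 336, 327 and 328 FPKM in control MO libraries (log2 difference -3.19, SE 0.34, limma, Benjamini-Hochberg adjusted p = 7.7e-05). Its relative jam3b was at 10.4 ± 4.28 FPKM in clec16a MO cells and 48.6 ± 1.98 FPKM in control MO cells (SD, n = 3 each; limma, adjusted p = 0.00013). The periostin gene postnb, also a mesenchyme marker here, was at 62.9 ± 14.4 FPKM in clec16a MO cells and 198 ± 7.61 FPKM in control MO cells (SD, n = 3 each; limma, adjusted p = 5.8e-05). Among the abundant ligands tgfbi was the one whose groups overlapped, at 41.1, 54.0 and 59.0 FPKM in clec16a MO libraries and 49.2, 52.7 and 54.7 FPKM in control MO libraries (log2 difference -0.04, SE 0.14, adjusted p = 0.82 by limma). With centring it was higher (0.66, adjusted p = 0.0048). The thrombospondin thbs1b, also a thrombocyte marker here, and the growth factor-binding protein igfbp1a were lower, with log2 differences of -0.95 and -1.22 (limma, adjusted p = 0.0045 and 2.5e-05), and thbs1b did not pass with centring (-0.25, adjusted p = 0.32).

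Ligands of single receptors above were looked up after their values were seen. The alpha4 ligand vcam1b was at 0.0824, 0.185 and 0 FPKM in clec16a MO libraries and 2.31, 2.47 and 2.85 FPKM in control MO libraries, so it was lower (limma, Benjamini-Hochberg adjusted p = 9.1e-06) while itga4 was not. Osteopontin, spp1, was at 0 in each clec16a MO library and at 2.87, 2.52 and 2.24 FPKM in control MO libraries. Both vcam1b and spp1 reached the testing level only through their control MO libraries. The fibronectin genes fn1a and fn1b, ligands of alpha5, were below 0.6 FPKM in every library, with fn1a at 0.180 ± 0.116 FPKM in clec16a MO cells and 0.473 ± 0.0752 FPKM in control MO cells (SD, n = 3 each).

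Most tested genes of the rest of the basement membrane were lower. Of 37 rows of such genes other than laminins, 24 were tested, 21 were lower, 1 was higher and mmrn2b and col15a1b did not pass. Over all rows tested, 54.6% were lower and 26.7% were higher. The list's median log2 difference was -2.06, against -0.66 over all rows. Median centring left 20 of the list lower and 3 higher, against 38.1% and 39.7% of all rows. The one that was higher, the crosslinking enzyme tgm2b, named after its value was seen, was at 2.21 ± 0.371 FPKM in clec16a MO cells and 1.45 ± 0.290 FPKM in control MO cells (SD, n = 3 each; limma, Benjamini-Hochberg adjusted p = 0.042), and the call was lost without the first or the third clec16a MO library or without the second or the third control MO library. Of the most abundant genes, the matrix protein sparc was at 22.4, 23.4 and 24.4 FPKM in clec16a MO libraries and 140.0, 142 and 139 FPKM in control MO libraries (log2 difference -2.54, SE 0.08, adjusted p = 3.1e-07 by limma). The vessel gene egfl7, which is also one of the endothelial markers above, was at 80.9 ± 15.3 FPKM in clec16a MO cells and 502 ± 6.63 FPKM in control MO cells (SD, n = 3 each; limma, adjusted p = 2.1e-06). The nidogen nid1b, which links laminin to collagen IV, was at 2.3, 5.01 and 2.1 FPKM in clec16a MO libraries and 18.9, 18.2 and 19.2 FPKM in control MO libraries (log2 difference -2.32, SE 0.25, adjusted p = 9.3e-05 by limma).

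Of the endothelial matrix proteins mmrn2a and mmrn2b, the first alone passed the test. The level of mmrn2a was 5.29 ± 0.908 FPKM in clec16a MO cells and 20.7 ± 0.669 FPKM in control MO cells, while that of mmrn2b was 70.2 ± 2.45 FPKM in clec16a MO cells and 76.4 ± 4.15 FPKM in control MO cells (SD, n = 3 each; limma, Benjamini-Hochberg adjusted p = 1.3e-05 and 0.22). The call for mmrn2b depended on scaling, since it was higher with centring (log2 difference 0.57, adjusted p = 0.00054) and lower with quantile normalization (-0.29, adjusted p = 0.021). The collagen col18a1b was at 2.78 ± 0.872 FPKM in clec16a MO cells and 22.3 ± 1.41 FPKM in control MO cells (SD, n = 3 each). The main network formers, chosen after their values were seen, were far lower in clec16a MO cells. Perlecan, hspg2, was at 0.0770, 0.0735 and 0.139 FPKM in clec16a MO libraries and 14.6, 14 and 13.9 FPKM in control MO libraries (log2 difference -3.79, SE 0.11, adjusted p = 2.4e-07 by limma). The collagen IV chain col4a1 was at 0.157 ± 0.140 FPKM in clec16a MO cells and 6.35 ± 0.345 FPKM in control MO cells (SD, n = 3 each). The chain col4a2 was at 0.0487, 0 and 0 FPKM in clec16a MO libraries and 6.46, 5.61 and 6.57 FPKM in control MO libraries. The rows hspg2, col4a1 and col4a2 reached the testing level only through their control MO libraries.

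Laminins also bind receptors that are no integrins. Of 32 rows of a list of these and of their partners, 21 were tested, 19 were lower and 1 was higher. Over all rows tested, 54.6% were lower and 26.7% were higher. The list's median log2 difference was -1.80, against -0.66 over all rows. Median centring left 16 of the list lower and 2 higher, against 38.1% and 39.7% of all rows. The higher one was the syndecan sdc4, at 184, 211 and 242 FPKM in clec16a MO libraries and 116, 119 and 125 FPKM in control MO libraries (log2 difference 0.81, SE 0.11, limma, Benjamini-Hochberg adjusted p = 0.00037). Its relative sdc2 was lower, at 6.11, 10.6 and 9.19 FPKM in clec16a MO libraries and 53.3, 59.1 and 58.5 FPKM in control MO libraries (log2 difference -2.62, SE 0.18, adjusted p = 9.1e-06 by limma). The Lutheran glycoprotein bcam, a receptor for the laminin alpha5 chain in mammals, was at 0.847 ± 0.120 FPKM in clec16a MO cells and 26.1 ± 0.593 FPKM in control MO cells (SD, n = 3 each; limma, adjusted p = 2.3e-07). The gene rpsa, a ribosomal protein also described as a laminin receptor, was at 6.73 ± 3.32 FPKM in clec16a MO cells and 242 ± 1.70 FPKM in control MO cells (SD, n = 3 each; limma, adjusted p = 2.4e-06). The sarcoglycans sgce and sgcd were lower, with log2 differences of -0.98 and -2.05 (limma, adjusted p = 0.00013 and 6.8e-06). The dystroglycan dag1 and the plectin plecb, named after their values were seen, were at 0.495 ± 0.0160 and 1.36 ± 0.125 FPKM in clec16a MO cells and at 7.95 ± 0.332 and 18.8 ± 0.420 FPKM in control MO cells (SD, n = 3 each). Since their clec16a MO means were below 1 FPKM, bcam and dag1 reached the testing level only through their control MO libraries.

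**Figure D5:**
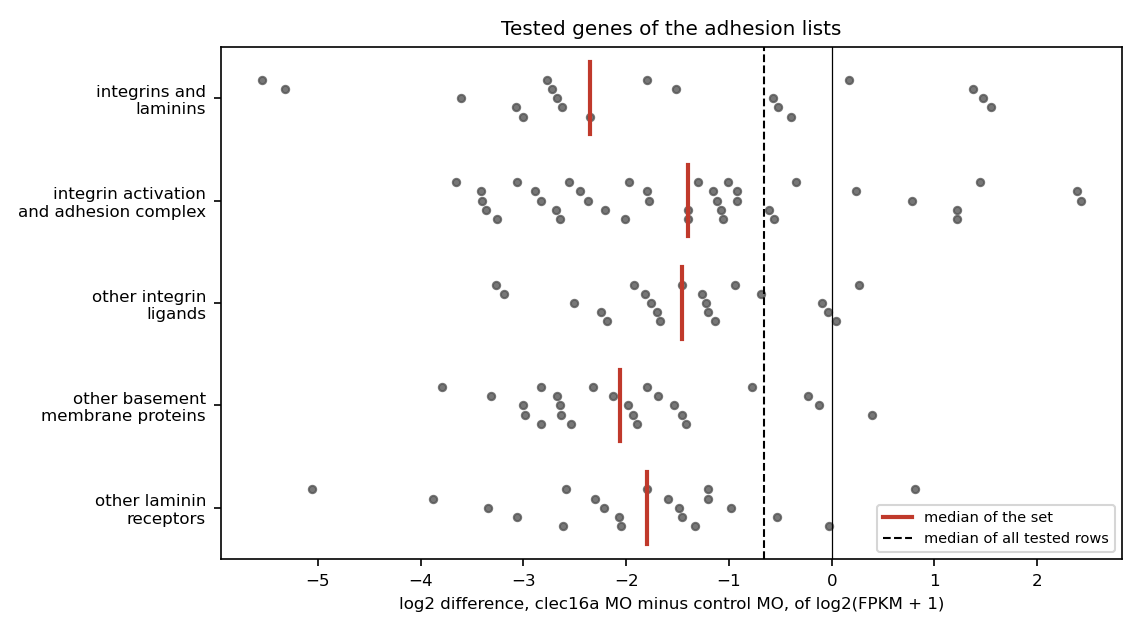
Log2 difference of FPKM + 1, clec16a MO minus control MO, one point per tested gene, for the integrins and laminins and for the 4 lists of related genes, with a bar at each median and a dashed line at the median of all rows tested (-0.66). The median is -2.35 for the integrins and laminins, and the list medians lie between -2.06 and -1.40.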

How the data were processed

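RNA of 3 clec16a MO and 3 control MO libraries was made into cDNA by oligo(dT) priming and template switching, PCR-amplified, fragmented and read in paired ends, per the labels' protocols. The authors deposited 1 table of FPKM values, 1 column per library, with 21853 rows. The submitters' processing notes list StringTie 2.1.6, HISAT2 2.2.1 and cutadapt 1.9. Coordinates are not reported, since the genome build is not given in the sources used here. Groups were taken from the genotype label. In the table, 16 rows whose names had become calendar dates were left out and 731 rows share a name with another row. Amplification from small amounts of RNA can add spread to low genes. Read depth is unknown: whole-read steps were searched for (tolerance 0.1%) and not found, so no counting interval is given.

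FPKM + 1 (the pseudocount was 1) was log2-transformed, rows whose mean over the 6 libraries reached 1 FPKM were kept, and the groups were compared with limma 3.58.1 (R 4.3.3, moderated test with a mean-variance trend, two-sided, Benjamini-Hochberg adjustment over all 12153 rows, threshold 0.05). A row can reach that mean through the libraries of 1 group alone, and its test is then not independent of the filter. This holds for list and marker rows as well as for members, and such rows enter the counts. For low genes the pseudocount makes a fold change too small. Family sums, shares and ratios were compared by two-sided exact permutation tests (SciPy 1.17.1). The limma step was also run on simulated data in which few rows differed and the libraries had no common shift. These data differ on both points, so that run says little about the calls here. Alternatives were other pseudocounts and filters, median centring, quantile normalization, no trend, array weights, a replicate block, summed rows of one name, globin, mitochondrial and ribosomal protein genes left out, and each library left out. The members and the lists of related and marker genes were chosen with earlier results of these data known. Every member is named. Of each list of related genes, the 6 with the highest mean FPKM are named, and others are said to have been chosen after their values were seen.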

Additional observations from a re-analysis of the deposited data

How the results depend on the processing

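The direction and the call held for most members: of the alternative values for the 19 tested members, 304 kept both, 5 became called and 7 turned direction. All 168 share values stayed within their spread, which says little. Library scaling cannot move a share, and leaving out 1 of 3 libraries moves a group mean by less than its SD. Among members, 3 to 4 were higher and 13 to 14 lower over the fits without 1 library. No filter gave 5 higher and 26 lower of the 42 members, where 3558 were higher and 10430 lower of all 21837 rows. A filter at 5 FPKM, which leaves fewer genes to test, gave 0 members higher and 11 lower. Over all rows that filter gave 2532 higher and 3472 lower. The direction turned for itga4 without clec16a MO replicate 1 (-0.040; -0.040 to 0.484 without 1 library), for itga2.1 with centring (0.300) and quantile normalization (0.618), for itga6b (0.117 and 0.107) and for itgb1a (0.166 and 0.514), in the same order. Of the other named genes, pxna, parvaa, parvab, clec14a and etv2 apart, 718 values were kept, 11 lost and 3 gained the call and 6 turned. Those that turned were tgfbi with centring (0.656), array weights (0.040), the abundant gene classes left out (0.022) and without clec16a MO replicate 1 (-0.143 to 0.113 without 1 library), mmrn2b with centring (0.573) and ilk with centring (0.132).

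All rows called lower numbered 10430 without a filter and 3472 at 5 FPKM. At 5 FPKM the lower counts were 18 for the adhesion complex, 9 for other ligands, 7 for other basement membrane genes and 9 for other laminin receptors. The numbers tested at 5 FPKM are not given here, so these counts cannot be read as shares. Without a filter the lower counts were 27 of 43 rows for ligands and 33 of 37 for basement membrane. Ligands called higher were 4 with centring, 3 with quantile normalization, 1 without a filter and 0 to 1 without 1 library. Basement membrane genes called higher were 3 with centring, 2 with quantile normalization, 0 with a pseudocount of 0.1, no filter, 5 FPKM, array weights or the replicate block, and 0 to 1 without 1 library. Laminin receptors called higher were 2 with centring and with quantile normalization. Dividing family sums by the median FPKM of the tested rows gave log2 ratios of -0.713 for integrin alpha, -3.302 for integrin beta, -2.519 for laminin alpha, -2.308 for laminin beta and -3.598 for the laminin gamma chain. The cause of these moves was not tested, beyond the change in the genes tested.

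Replicate numbers are shared between the groups, but same-numbered libraries did not deviate together (correlations 0.0437, -0.0178 and 0.00542), so no pairing was seen. Whether same-numbered libraries shared a clutch or a preparation is not known. With the replicate block, 3 members were higher and 13 lower, as without it. Depth is unknown, so members near 0 FPKM cannot be told from undetected ones.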
